A study of Cyprinus carpio with 2 samples.

Results

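Zona pellucida (ZP) genes encode the glycoproteins of the egg envelope, and their transcripts were followed in the gonads of young common carp (Cyprinus carpio) before maturity. Members were the unigenes, which are numbered transcript units of the deposited tables, whose first gene name is zp followed by a digit from 1 to 4. There were 21 of them among 22634 unigenes, under 7 symbols: zp2.2, zp2.5, zp2l1, zp2l2, zp3a.1, zp3a.2 and zp3b. No unigene carried a zp1 or zp4 name. One library was made from testis and 1 from ovary, and the labels name no genotype, strain or treatment. Both came from juvenile fish with immature gonads, at 110 to 130 days post hatch. The number of fish behind each library is not stated in the sources used here.

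The egg envelope of fish, also called the chorion or vitelline envelope, is a fibrous coat that forms around the growing oocyte. Its proteins are secreted glycoproteins that polymerise through a shared ZP domain, and the envelope later guides sperm entry and protects the embryo until hatching. In zebrafish, a close relative of carp, the zp2 and zp3 families are expanded and are transcribed in the oocyte, whereas in medaka and rainbow trout some envelope proteins (choriogenins) are made in the liver under estrogen.

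The tables held 4311799 ovary reads and 1926860 testis reads over all unigenes, which is not the whole depth of the libraries. A deposited value is the reads of a unigene divided by 1 size factor per library, and read numbers were recovered from it. Each tissue has 1 library, so differences could not be checked against replicates and were not tested. Intervals are exact Clopper-Pearson 95% intervals on reads, which hold for counting error alone. No value column names a tissue, and ovary and testis were assigned from the titles of the authors' lists, so an error in those titles would exchange every direction. One member is in the list titled for the ovary and thus took part in that assignment. The 5 Sertoli and testis somatic markers (amh, Dmrt1-1, sox9a, wt1a and cldn11a) summed to 32 ovary and 2303 testis reads. All 5 are in the authors' testis list, which fixed their direction, and their median log2 ratio was 6.59 relative to all unigenes. As deposited, the ratio of ovary to testis had a median of 1.78 over all unigenes, and folds below are relative to that median unless called deposited. A read stands for 2.31 units in ovary and 1.73 in testis. The deposited scaling thus raises the ovary side, although that library has more reads. No unigene of the tables is at 0 in either library, so a transcript read in 1 library alone is not covered.

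All 21 ZP unigenes reached 5 units in ovary and all were higher there, as were 68.7% of all unigenes in the deposited values. Relative to the median of all unigenes, 20 members differed at least 4-fold toward ovary and 0 toward testis, against 11.2% and 13.8% of the 21649 unigenes that reached 5 units in their higher library. As deposited the count was 21 of 21, against 23.2%. At 8-fold it was 18, against 4.38%. A lean toward ovary was common among unigenes with high ovary values. Of the 141 above 7494 units, the highest ovary value in the authors' ovary list, 129 passed 4-fold toward ovary. Those 141 include 8 members. The median member had a log2 ratio of testis over ovary of -3.73 relative to the median of all unigenes. Together the members took 4.45% of all ovary reads (95% interval 4.43 to 4.47) and 0.606% of all testis reads (95% interval 0.596 to 0.618), a 7.33-fold difference in share that does not depend on any scaling between the libraries. In bulk tissue, fewer cells of a type and less RNA per cell cannot be told apart.

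Among the 10 highest ovary values, 3 belonged to ZP unigenes, and 7 of the highest 100. The zp2.2 unigene Unigene_19459, a zp2-type envelope component, had the highest deposited value of the ovary library, 152952 units, and 8080 units in testis. These values correspond to 66230 ovary and 4665 testis reads. Its neighbour in the numbering, Unigene_19460, also zp2.2, had 80009 units in ovary and 4157 in testis and ranked 7th in ovary. For zp3a.2, a zp3-type component, the leading Unigene_20698 had 85118 units in ovary and 2357 in testis and ranked 6th. These 3 unigenes held 71.8% of the ZP reads in ovary and 72.1% in testis, so most ZP signal in both libraries came from the same few transcript units. Unigene lengths are not stated in the sources used here, so levels of different unigenes are reads per unigene and not abundance per length.

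**Figure D1:**
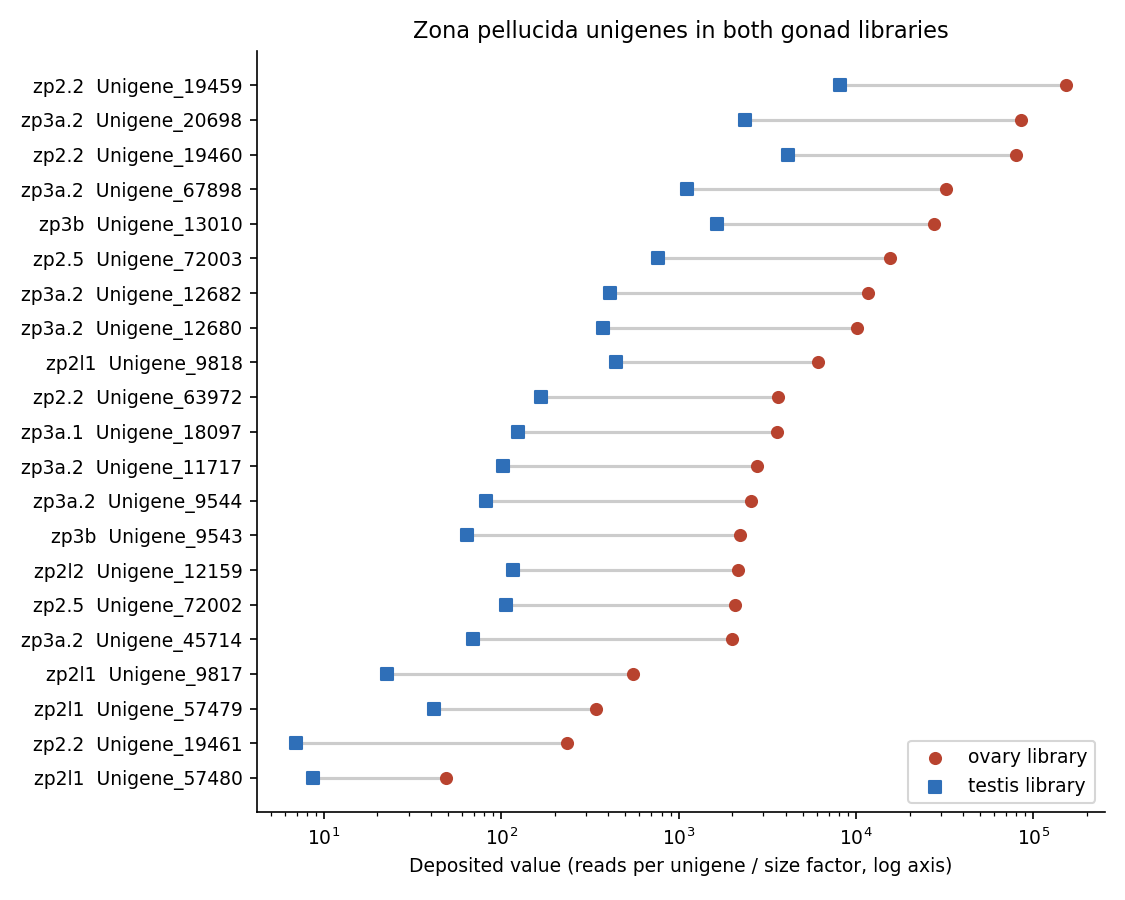
Deposited value of each of the 21 zona pellucida unigenes in the ovary library (circles) and the testis library (squares), on a log axis, ordered by the ovary value. Every ovary point lies to the right of its testis point, and zp2.2 Unigene_19459 leads in both libraries with 152952 and 8080 units.

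The remaining 18 members covered a wide span of levels. In ovary they ran from 48.5 units for Unigene_57480, a zp2l1 unigene with 21 ovary and 5 testis reads, to 31937 units for Unigene_67898, a zp3a.2 unigene with 13829 ovary and 640 testis reads. Unigene_13010, one of the zp3b unigenes, held 11893 ovary and 948 testis reads, and Unigene_72003, the larger zp2.5 unigene, 6718 and 439. The single unigenes of zp3a.1 and zp2l2 were lower, with 1560 reads in ovary and 72 in testis for zp3a.1, and 932 and 67 for zp2l2. In testis, 9 members had 100 or more reads and 2 had fewer than 10, so counting error is small for the leading members and wide for the lowest.

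The zp3a genes, though not zp3b summed over its 2 unigenes, were more uneven between the gonads than the zp2 genes. The 8 zp3a unigenes, 7 of zp3a.2 and 1 of zp3a.1, were 15.1-fold to 20.3-fold higher in ovary. Summed over their reads, 64806 in ovary and 2671 in testis, the difference was 18.2-fold (95% interval 17.5 to 18.9). The 11 zp2 unigenes, with 114123 ovary and 8030 testis reads, were 10.7-fold higher when summed (95% interval 10.4 to 10.9). Of these 11, 10 lay below the point ratio of the lowest zp3a unigene, and for 8 the whole interval lay below that point ratio. The exception to the 10 was zp2.2 Unigene_19461, at 19.1-fold (95% interval 7.25 to 71.5) from 102 ovary and 4 testis reads. The lowest zp3a unigene, Unigene_12680, has an interval of its own of 13.2 to 17.4. The intervals of zp2l2 (to 13.6) and zp2.5 Unigene_72002 (to 14.5) overlap it. A scaling between the libraries moves both families by 1 common factor and leaves the gap between their summed ratios as it is. That summed gap exceeds counting error, and its spread between fish could not be measured. Unigenes of 1 symbol are not replicates. The comparison leaves out zp3b, which was 9.78-fold higher when summed (95% interval 9.17 to 10.4). The whole zp3 class, the planned grouping, was 15.9-fold higher (95% interval 15.4 to 16.5). Setting zp3a apart from zp3b was not planned.

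**Figure D2:**
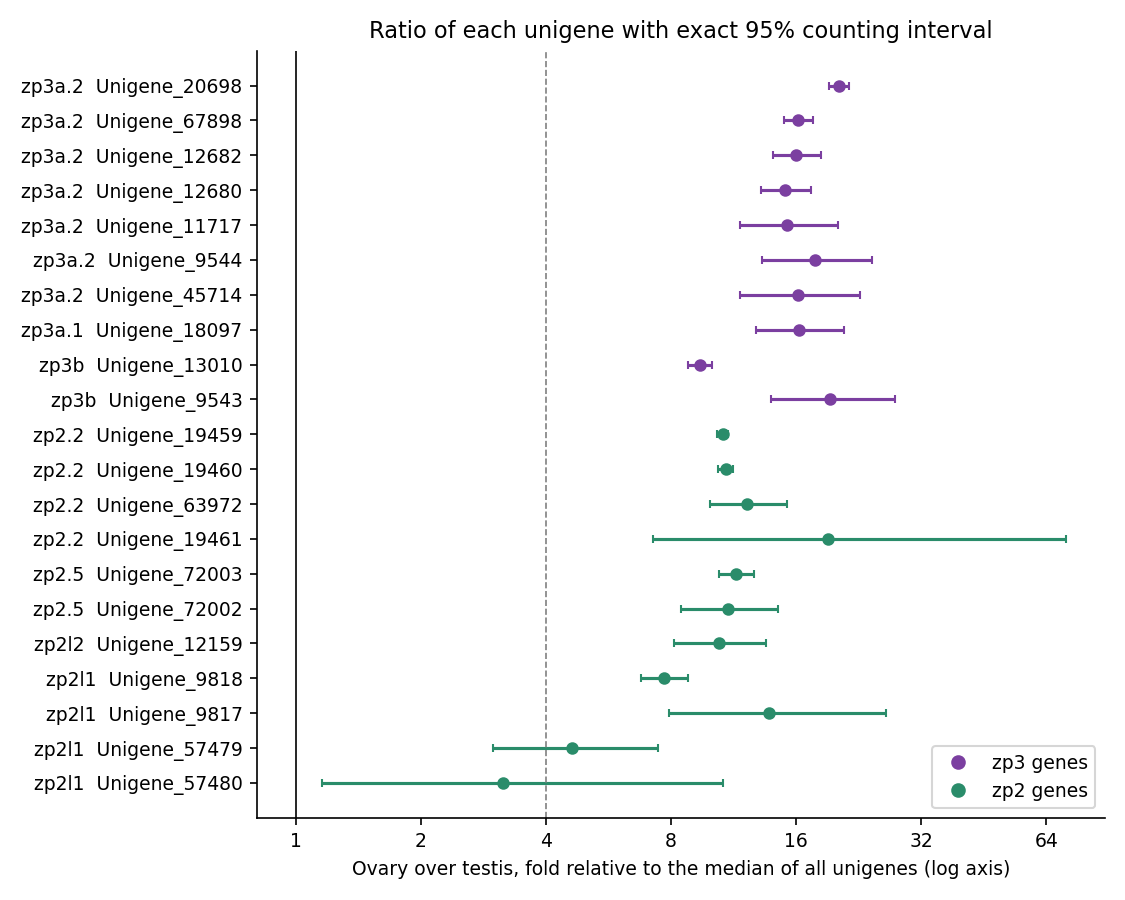
Ovary over testis ratio of each zona pellucida unigene relative to the median of all unigenes, on a log axis, with exact 95% counting intervals. Lines mark equality with the median (1) and the 4-fold threshold. The 8 zp3a unigenes sit at 15.1 to 20.3, whereas 10 of 11 zp2 unigenes sit below 15.1. The zp3b unigenes sit at 9.41 and 19.4.

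Within zp3a.2 the leading Unigene_20698 was 20.3-fold higher in ovary (95% interval 19.2 to 21.5), above Unigene_67898 at 16.2-fold (95% interval 15 to 17.6). Those intervals do not overlap. The other 5 zp3a.2 unigenes, at 15.1-fold to 17.8-fold, and zp3a.1, at 16.2-fold (95% interval 12.8 to 20.9), overlapped with Unigene_67898 in their intervals. The zp3b unigenes differed from each other. Unigene_13010 was 9.41-fold higher in ovary (95% interval 8.81 to 10.1) and Unigene_9543 was 19.4-fold higher (95% interval 13.9 to 27.7), from 955 ovary and 37 testis reads. Unigene_9543 is numbered next to the zp3a.2 unigene Unigene_9544, which was 17.8-fold higher (95% interval 13.3 to 24.3). Whether a unigene's deposited name is the right one was not tested.

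Outside zp2l1, the zp2 unigenes ran from 10.4-fold to 19.1-fold. All 7 unigenes of zp2.2, zp2.5 and zp2l2 had intervals that hold their summed ratio of 10.8-fold (95% interval 10.5 to 11). That sum is mostly Unigene_19459 and Unigene_19460, with 66230 and 34645 of its 111085 ovary reads. The intervals of its smallest members are wide, so the overlap does not show that the family is even. Unigene_19459 and Unigene_19460 were 10.6-fold and 10.8-fold higher in ovary, the zp2.5 unigenes 11.5-fold and 11-fold, and zp2l2 10.4-fold. For zp2l1, a zp2-like gene, Unigene_9818 was 7.71-fold higher (95% interval 6.77 to 8.79) from 2630 ovary and 256 testis reads. Unigene_57479, also zp2l1, was 4.62-fold higher (95% interval 2.99 to 7.45). The only member under 4-fold was zp2l1 Unigene_57480, at 3.15-fold (95% interval 1.16 to 10.7), while zp2l1 Unigene_9817 was at 13.8-fold (95% interval 7.91 to 26.3). The 4 zp2l1 unigenes together were 7.65-fold higher (95% interval 6.79 to 8.64), an interval below those of zp2.2, zp3a.2 and zp3b summed in the same way. Carp has a duplicated genome, and 6 pairs of members have consecutive numbers. Whether members are near-identical, with reads divided between them, was not tested, so single values are uncertain.

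The mixture of ZP transcripts therefore differed between the libraries. The zp2 unigenes took 59.5% of ZP reads in ovary (95% interval 59.3 to 59.7) and 68.7% in testis (95% interval 67.9 to 69.6). The zp3 unigenes took 40.5% and 31.3%. By symbol, zp2.2 held 53.5% of ZP reads in ovary and 61.3% in testis, zp3a.2 held 33% and 22.2%, and zp3b held 6.7% and 8.43%. Each of these shares covers 1 library.

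**Figure D3:**
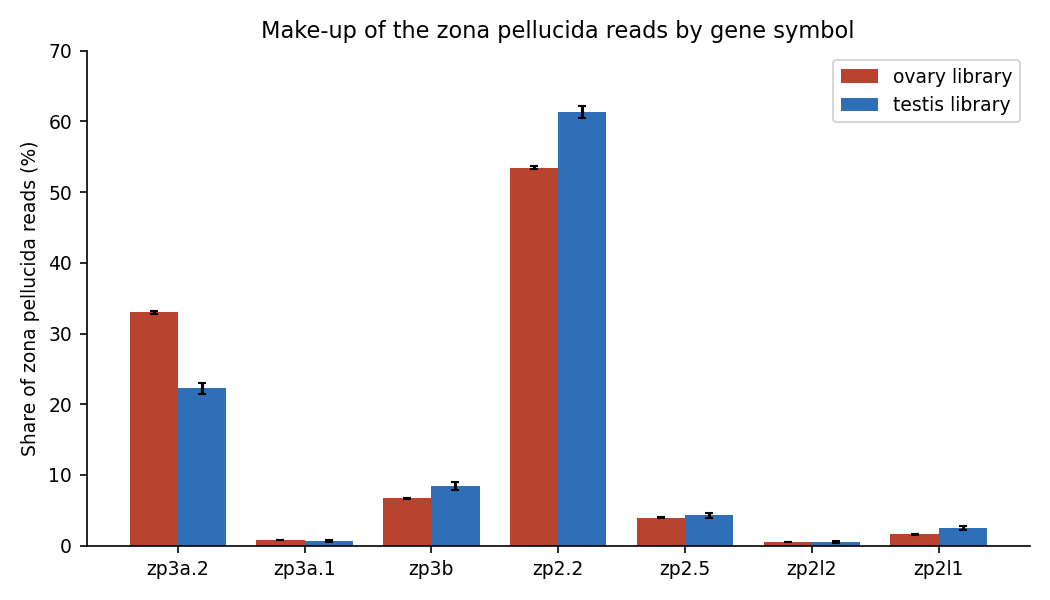
Share of all zona pellucida reads (percent) taken by each gene symbol in the ovary and testis libraries, with exact 95% counting intervals as error bars. The symbol zp2.2 takes the most in both, 53.5% in ovary and 61.3% in testis, and zp3a.2 takes 33% in ovary and 22.2% in testis.

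ZP transcripts were also well represented in the testis library. Unigene_19459 ranked 8th of all testis unigenes, beside transcripts of mitochondria and translation such as COX1, eef2b and rpl3. A high testis rank was shared by other leading ovary unigenes, such as LOC100148225 Unigene_19655 (14th) and cst3 Unigene_14220 (15th). Unigene_17941, 4th in ovary, ranked only 764th in testis. Among the highest 100 testis values were 3 ZP unigenes, and among the highest 1000 there were 6. The 11686 ZP reads of the testis library were 5.07 times the 2303 reads of the 5 testis somatic markers. Oocyte markers were also read there. The 5 oocyte markers gdf9, bmp15, zar1, figla and btg4 were all found, as 8 unigenes, with 28525 reads in ovary and 1131 in testis, or 0.662% and 0.0587% of all reads. Their summed ratio was 18.9-fold toward ovary (95% interval 17.8 to 20.1), compared with 12.3-fold (95% interval 12.1 to 12.5) for the ZP members. There were 6.72 ZP reads per oocyte marker read in ovary and 10.3 in testis. Both comparisons rest on btg4, which held 22034 of the ovary reads of these markers. Without it, a choice made after seeing the data, the other 4 markers were 11-fold higher in ovary (95% interval 9.98 to 12.1), and there were 29.5 ZP reads per marker read in ovary and 26.4 in testis, so the order turned in each, although the interval of the 4 markers overlaps that of the ZP members. Of the reads of these 4 markers, zar1 held 5460 of 6491 in ovary and 346 of 443 in testis. That sum is thus mostly zar1 (11.8-fold), and single markers ran from 3.9-fold for bmp15 to 15.5-fold for gdf9. The part of oocyte transcripts in the ZP reads of the testis library was not tested.

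Single oocyte genes bracketed the ZP ratio. The growth factor gdf9 was 15.5-fold higher in ovary with its 2 unigenes summed, and bmp15, its paralogue, 3.9-fold. The transcription factor figla, which in mouse is needed for zona gene transcription, had 201 ovary and 12 testis reads and was 12.6-fold higher (95% interval 7.03 to 24.7). Of the 26 unigenes in the list of oocyte regulators and maternal genes, 23 passed 4-fold toward ovary and 0 toward testis, against the 11.2% and 13.8% of all unigenes. Their median log2 ratio was -3.51, and the ZP median of -3.73 lay close to it. Both btg4 unigenes (24.9-fold and 23.1-fold), a gene of maternal transcript clearance, and npm2b Unigene_14929 (18.2-fold), a nucleoplasmin of the egg, were the most uneven of that list, followed by gdf9 Unigene_19034 (17.2-fold). The germ cell gene dazl went the other way, 1.44-fold higher in testis with its 2 unigenes summed, while the values as deposited put it higher in ovary.

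**Figure D4:**
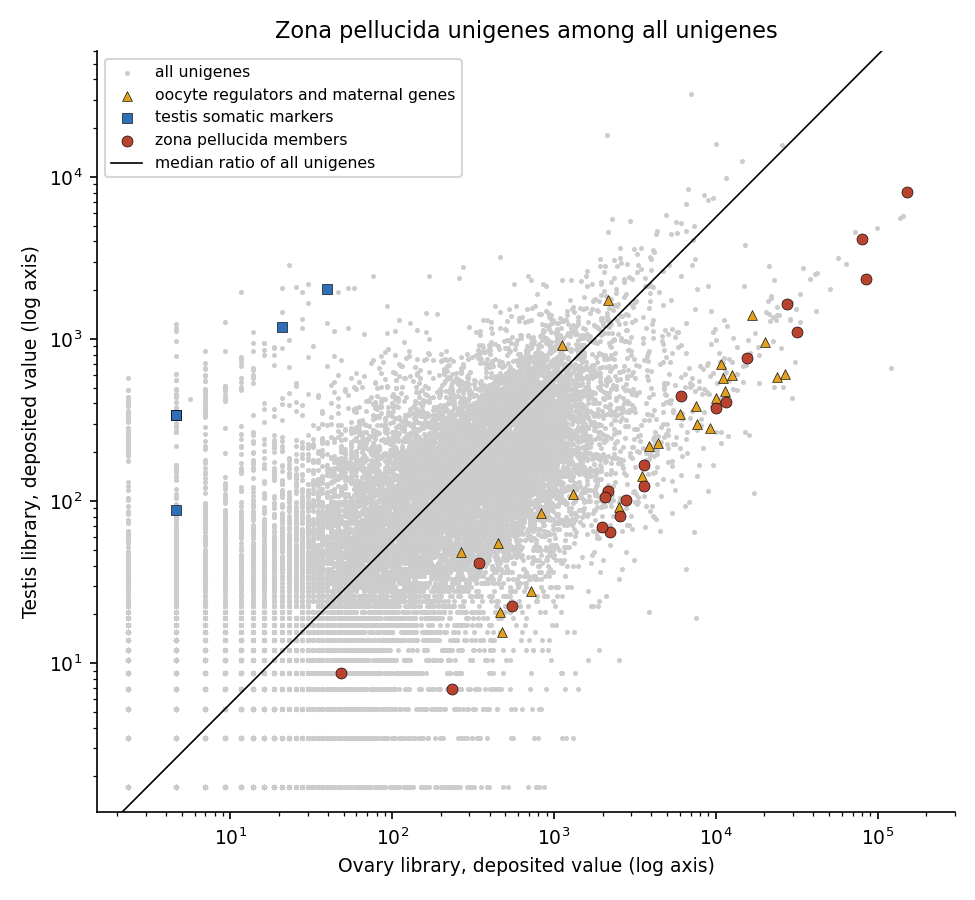
Deposited value of every unigene in ovary (x axis) and testis (y axis), both log axes, with the zona pellucida members, the oocyte regulators and maternal genes, and the testis somatic markers drawn over all unigenes. The line is the median ratio of all unigenes. All 21 members lie below it, in the same band as most oocyte genes, and the 5 testis somatic markers lie above it.

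Of other genes with a ZP domain, the list held zpcx and tectb (4 unigenes, median log2 ratio -2.79). All 3 zpcx unigenes were at least 4-fold higher in ovary, against 11.2% of all unigenes. With equal total reads, 2 of the list passed. Unigene_16784 of zpcx had 14402 ovary and 1094 testis reads (9.87-fold, 95% interval 9.28 to 10.5), Unigene_16783 had 7985 and 457 (13.1-fold, 95% interval 11.9 to 14.4), and Unigene_58291 had 4281 and 663 (4.84-fold, 95% interval 4.46 to 5.26). The tectorin gene tectb, known from the inner ear, had 1 read in each library. A further 3 unigenes were found by their deposited protein name, which mentions a zona pellucida-like domain, and were chosen after their values were seen. They are si:dkeyp-50f7.2, with 11383 reads in ovary and 983 in testis (8.68-fold higher in ovary), and both unigenes of si:ch211-14a17.6, 14.6-fold and 18.9-fold higher.

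Genes that process, harden or dissolve the envelope came next. Of 31 unigenes under 14 symbols, 27 reached 5 units, 7 of these (25.9%) passed 4-fold toward ovary and 2 (7.41%) toward testis, against 11.2% and 13.8% of all unigenes. The 2 toward testis, of pcsk5a and tgm8, had 1 ovary and 4 testis reads each, and with a floor of 20 units 0 passed toward testis. The median log2 ratio was -0.57. The lipoxygenase alox12 (Unigene_18690) had 817 ovary and 7 testis reads, 87.5-fold higher in ovary (95% interval 42.3 to 218), and is in the authors' ovary list. The hatching enzyme gene he1b had 2048 ovary and 79 testis reads, 19.4-fold higher (95% interval 15.5 to 24.7). Reads of the fetub unigenes were few, 79 in ovary and 3 in testis; in mouse this fetuin inhibits the protease that hardens the zona. The convertase furina, of the enzyme type that trims ZP precursors, was 1.61-fold higher in ovary over 3 unigenes (95% interval 1.35 to 1.92), and tgm8, a transglutaminase of the enzyme class that cross-links envelope proteins, had 4 ovary and 7 testis reads.

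The list of egg and sperm surface genes held unigenes of spaca4l, cd9a and cd9b alone. Its sperm genes, such as izumo1 and spaca6, had none and are not covered. Of the 7 unigenes, 3 (42.9%) passed 4-fold toward ovary and 1 (14.3%) toward testis, against 11.2% and 13.8% of all unigenes. Their median was -0.99. The spaca4l unigenes Unigene_11099 and Unigene_11100 were 85.6-fold and 24.2-fold higher in ovary. Another spaca4l unigene, Unigene_84278, with 1 ovary and 5 testis reads, was the 1 that passed toward testis. The tetraspanin gene cd9b, whose relative acts in egg and sperm fusion in mouse, was 8.44-fold higher in Unigene_15251 and 4.29-fold higher with its 2 unigenes summed. Its paralogue cd9a had 7 ovary and 19 testis reads in Unigene_49903 but 49 and 20 in Unigene_1521, a summed ratio of 1.08 (95% interval 0.703 to 1.66).

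Liver transcripts were scarce in both libraries. The 5 liver marker symbols found of 8 in the list (apoa1b, apoa2, fabp10a, fga and vtg7) summed to 162 ovary and 51 testis reads, 0.00376% and 0.00265% of all reads. There were 1184 ZP reads per liver marker read in ovary and 229 in testis. The yolk precursor gene vtg7 had 3 ovary and 2 testis reads. In the whole liver list of 19 unigenes, 3 of the 18 that reached 5 units (16.7%) passed 4-fold toward ovary, near the 11.2% of all unigenes, and 0 toward testis, with a median of -0.37. Those 3 were the complement gene c3a.6 (32.8-fold, from 175 ovary and 4 testis reads) and the apolipoproteins apoa2 (37 and 1 reads) and apoa1b (72 and 6 reads). The c3a.6 unigene is in the authors' ovary list, which fixed its direction. The marker fabp10a had 15 ovary and 3 testis reads. The 2 tfam unigenes of the list, which entered through the paralogue suffix, encode a mitochondrial factor and no liver protein.

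Estrogen signalling was represented by esr2b and ncoa2. The estrogen receptor esr2b had 3 ovary and 413 testis reads, 184-fold higher in testis (95% interval 62.4 to 894), but its unigene comes from the authors' testis list alone, which fixed its direction. The coactivator ncoa2 had 30 ovary and 91 testis reads over 5 unigenes. Of the 6 unigenes of both genes, 5 reached 5 units, and the median of all 6 was 1.84. Of those 5, 0 passed 4-fold toward ovary and 3 (60%) toward testis, against 11.2% and 13.8% of all unigenes. In the expression table alone, which leaves out esr2b, 2 passed toward testis and the median was 1.33.

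By distance in log2 ovary and log2 testis value, the 5 named unigenes nearest to zp2.2 Unigene_19459 were 3 of LOC100148225 and 2 of the cystatin gene cst3, at distances of 0.51 to 1.94 over these 2 libraries. They were 8.97-fold to 14.2-fold higher in ovary, on either side of the 10.6-fold of Unigene_19459. Being chosen by both values keeps their ratios near that of Unigene_19459. The 5 highest ovary values were those of Unigene_19459, 3 of these neighbours and Unigene_17941, an uncharacterised protein with 52774 reads in ovary and 381 in testis (104-fold higher in ovary).

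The ratio of a unigene moved with its number in the tables. Split at the median number, 20856, the unigenes below it had a median deposited log2 ratio of -1.71 and those from it on 0.24. The 14 members below 20856 had a median of -3.03 relative to their range, and all 14 passed 4-fold toward ovary relative to the median of all unigenes, against 19.7% of that range. The 7 members from 20856 on had a median of -4.59 relative to theirs, and 6 passed, against 2.38%. The ZP ratio thus lay toward ovary in both ranges, and what the numbering stands for was not tested.

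The authors' own lists were compared with the members. One unigene, zp2.2 Unigene_63972, is in the authors' deposited list for ovary, 4.76% of the 21 members against 0.565% of the unigenes in the expression table. It had 3614 units in ovary and 166 in testis, from 1565 and 96 reads, and was 12.2-fold higher in ovary (95% interval 9.95 to 15.2), an interval that holds the summed ratio of the zp2 unigenes. In the authors' deposited table its p-value is 0.0141, and it is the only member under 0.05, against 0.743% of all unigenes in that table. The authors' deposited table gives the leading Unigene_19459 a p-value of 0.971, zp3a.2 Unigene_20698 0.923 and Unigene_19460 0.933. The highest ovary value in the ovary list is 7494 units, and 8 members lie above it, with p-values of 0.256 to 0.971 in the authors' deposited table. Of all 141 unigenes above that value, 129 passed 4-fold toward ovary and 0 had a deposited p-value under 0.05. The highest p-value in the ovary list is 0.0488 in the authors' deposited values. The lack of p-values under 0.05 above the maximum of that list thus largely follows from the cut. How the p-values were computed is not stated in the sources used here, so they cannot be read as showing that the high members did not differ.

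The p-value of Unigene_63972 also stood apart from those of unigenes with like values. In the authors' deposited table, zp3a.1 Unigene_18097 has nearly the same ovary value, 3603 units, and a lower testis value, 125 units, yet a p-value of 0.112. The 20 unigenes nearest to Unigene_63972 in both values have p-values of 0.125 to 0.17 in the authors' deposited table, with a median of 0.147, so its own is 0.0959 times that median. For the other 20 members this quotient was 0.896 to 1.14, and for 98% of the table it was 0.9 to 1.1. A quotient under 0.2 was found for 6 other unigenes of the table, from 0.0596 to 0.101. They are foxk2, sox9a, fbxo43, EGR2B, mapk14a and NROB1, named after their values were seen, and the next lowest quotient was 0.216. All 7 are in an authors' list, 5 for ovary and 2 for testis. The p-value of Unigene_63972 has 7 decimals in the ovary list, where the other 126 have 6. The cause was not tested, nor was whether its p-value placed Unigene_63972 in that list.

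**Figure D5:**
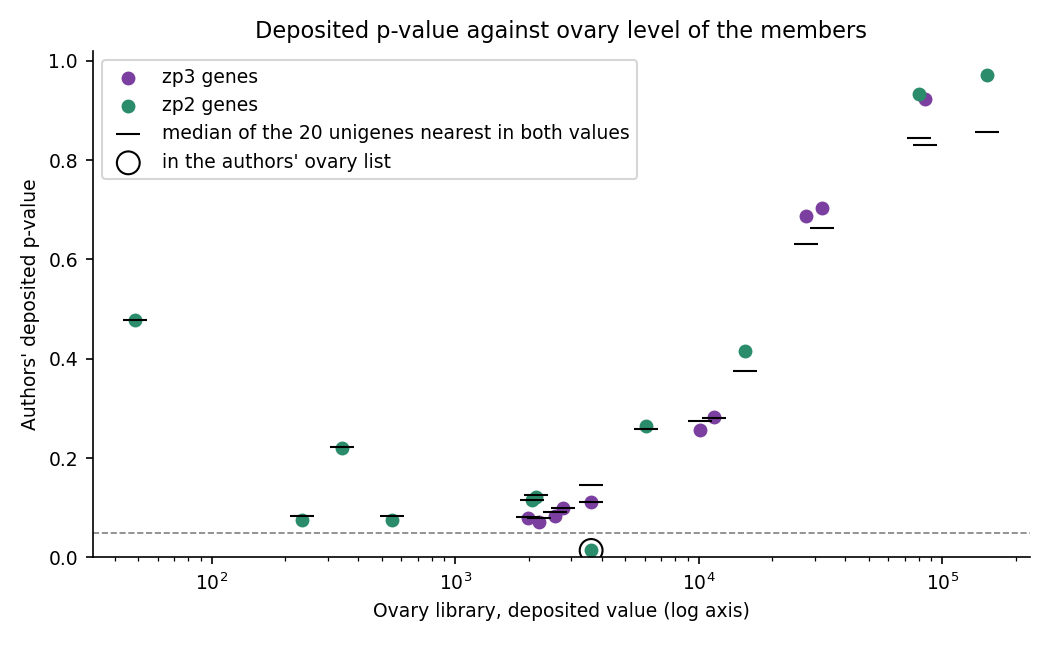
The authors' deposited p-value of each zona pellucida member against its ovary value (log x axis), with a dash for the median p-value of the 20 unigenes nearest in both values. The dashed line is 0.05. The 8 members above 7494 units have p-values from 0.256 to 0.971, and the ringed zp2.2 Unigene_63972, at 0.0141, lies below its dash at 0.147.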

How the data were processed

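RNA sequencing libraries of juvenile carp testis and ovary, 1 each, were analysed. Total RNA was extracted from gonads and made into libraries with a commercial kit, per the labels' protocols; what aligned, assembled and counted the reads, and on which build, is not given in the sources used here. Values are a signal: the authors scaled each unigene's reads by a size factor of the library, per the file headers and the values. The log2 column compares B with A, per the file headers, and was recomputed within 0.001 for all 22487 unigenes of the table. The p-value column was made by the authors in a way no header states.

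Values rise in steps of 2.31 units in ovary and 1.73 in testis. A step is treated as 1 read. The steps of ovary and testis multiply to 4, and that a step could be a read pair was not tested. This gave whole reads within 0.01 for 22632 ovary and 22633 testis values, all members included. No count model was fitted, since 1 library per tissue leaves no spread between samples. From the authors' testis list, 147 unigenes absent from the expression table were added; no member is among them. Ovary and testis columns were assigned from the list titles, in which all 127 and all 171 unigenes are higher in A and in B.

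A ratio is log2 of (testis + 1) over (ovary + 1), less its median over all unigenes of -0.83; folds carry no pseudocount. Called unigenes are at least 4-fold apart and reach 5 units in the higher library. From each other list, up to 4 unigenes with the largest absolute ratio and at least 10 units are named, as are the 5 unigenes nearest to the highest member and the 5 highest in ovary; further list genes are named for their role, after their values were seen. Members and lists were chosen with earlier results of these data known. The 20 nearest unigenes of the p-value comparison were chosen after seeing the data. Of the 7 member symbols, 2 (zp2l2 and zp3b) are in the RefSeq annotation of ASM1834038v1, used for names only; zp3c, zp3d.1, zp3d.2 and zp3f.2 of that annotation were not analysed here. The code was tested on simulated data. Python 3.11.15, NumPy 2.4.6, pandas 2.3.3, SciPy 1.17.1 and matplotlib 3.10.9 were used.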

Additional observations from a re-analysis of the deposited data

How the results depend on the processing

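The count of 20 ZP unigenes at least 4-fold higher in ovary stayed between 18 and 21 over the alternatives run on unigenes (pseudocounts of 0.1 and 10, floors of 0 and 20 units, 3 other scalings, fold thresholds of 2 and 8, and the expression table alone), and 0 were higher in testis in each. With the unigenes of 1 symbol summed, all 7 symbols were at least 4-fold higher in ovary, against 990 of all 9494 symbols. The median log2 ratio of -3.73 was -2.98 with equal total reads, and the ZP share of testis reads was 0.622% in the expression table alone. The sign of other lists changed for 2: liver to 0.029 with a pseudocount of 10 and to 0.38 with equal total reads, and envelope processing to 0.18 with equal total reads. With equal total reads the value subtracted from every log2 ratio goes from -0.83 to -1.58. All ratios then move by 1 common amount, which carries medians near 0 past it. The cause of the change with a pseudocount of 10 was not tested. Over all unigenes, the calls in ovary and testis were 2422 and 2984 relative to the median, 5022 and 1329 as deposited, 1181 and 5025 with equal total reads, 2083 and 1280 with a pseudocount of 10, 2381 and 2146 with a floor of 20 units, 5897 and 5902 at 2-fold, 948 and 1136 at 8-fold, and 990 and 749 over summed symbols. For the ratios of single members, 80 values under alternatives stayed within the counting interval, 46 moved out of it and 0 changed sign; summing by symbol was not run for them, since it leaves no single unigene. No paired analysis was possible because each tissue has 1 library. Depth limits zp2.2 Unigene_19461 and zp2l1 Unigene_57480, with 4 and 5 testis reads.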
